A study of Homo sapiens with 8 samples.

Results

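The comparison described here set BEAS-2B cells exposed to the fibrinogen αC domain (aC) against BEAS-2B cells that received phosphate-buffered saline (Mock), in RNA sequencing libraries of the whole transcriptome. It was drawn by the treatment label alone and holds 4 of the 8 libraries of the series, 2 in each group. BEAS-2B is an immortalised human bronchial epithelial line. Every group was wild type, was grown in the serum-free medium LHC-9 and was sampled after 4 h. The αC domain was given at 4 ng/µl, and the title of the series links it to a group 1 mite allergen of Dermatophagoides microceras. The other 2 groups, with 2 libraries each, are set beside it only where they show how aC stands: FCP, treated with the Der m 1-derived FCPs named in the labels, and FBG, treated with fibrinogen, both at the same dose. The preparation of the αC domain, and whether the cultures of the 4 groups were started and harvested together, are not given in the sources used here. An effect of the αC domain and any other difference between the aC and the Mock cultures therefore cannot be told apart.

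Fibrinogen is a plasma glycoprotein that thrombin turns into fibrin, and its αC domains are flexible C-terminal parts of the Aα chain that take part in fibrin assembly and carry an RGD motif for integrins. Bronchial basal cells, the cells BEAS-2B is often used to stand for, hold on to the basement membrane through hemidesmosomes, in which integrin α6β4 binds laminin-332 outside the cell and plectin links it to keratins inside. Cells that spread on interstitial matrix use focal adhesions instead, where β1 and β3 integrins are coupled to actin. NF-kB is the transcription factor family through which epithelia switch on chemokines and cytokines after microbial or inflammatory signals.

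The aC libraries held 22258791 and 22248780 counts and the Mock libraries 16553366 and 16561302, and 24602 and 24556 genes had a count in the aC libraries, against 20694 and 20747 in the Mock libraries. Mitochondrial genes took 4.15% and 4.13% of counts in aC and 4.09% and 4.07% in Mock. The 2 libraries of a group were very close: over genes with no copy on an alternate locus, the variance between them was 1.26 times that of counting alone in aC and 1.27 times in Mock. The labels number them as biological replicates and do not say that they came from separate cultures, so p-values here reflect no more than how far these libraries lie apart, a spread that may be purely technical. Libraries of aC and FCP lay close to each other, and those of Mock and FBG apart from them. In direct tests, 15.2% of the 15284 genes tested differed between aC and FCP, and 73.4% between aC and FBG.

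Markers of the labelled cell type were checked first. Bronchial basal markers (KRT5, KRT14, KRT15, KRT17 and TP63) summed to 2790 and 2860 CPM (counts scaled by trimmed mean of M values to a common library size) in the aC libraries, against 356 and 355 CPM in the Mock libraries, and nearly all of the Mock level was KRT17. The general epithelial markers KRT7, KRT8, KRT18, KRT19, EPCAM and CDH1 summed to 4600 and 4560 CPM in aC, against 2160 and 2160 CPM in Mock. Of a short list of 11 fibroblast and smooth muscle markers, 7 were tested, 1 was higher in aC and 6 were lower, and the list summed to 249 and 250 CPM in aC, against 2410 and 2440 CPM in Mock, mostly COL1A1. The secretory markers SCGB1A1, SCGB3A1 and MUC5B had 0 to 2 counts in each of the 4 libraries, and of the ciliated markers FOXJ1 and TPPP3 had 0 to 4 and DNAH5 had 57 and 74 counts in aC, against 55 and 44 in Mock. CD3E, MS4A1 and HBB, which mark T cells, B cells and erythroid cells, had 0 counts in all 4. CD14, a monocyte marker, had 60 and 54 counts in aC, against 29 and 26 in Mock, and the blood and immune list summed to 2.57 and 2.35 CPM in aC, against 2.02 and 1.75 CPM in Mock. Of the endothelial markers PECAM1, VWF, CDH5 and KDR, 3 were tested and all 3 were higher in aC, and the list summed to 3.99 and 2.44 CPM in aC, against 1.01 and 0.94 CPM in Mock. Changes in the share of cells of a kind and changes in RNA per cell cannot be told apart in these bulk libraries, and the part of the marker levels in the results that follow was not tested.

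Against Mock, the aC libraries differed in most of the transcriptome. Of 15284 genes tested, 12134 (79.4%) passed an adjusted p of 0.05, with 6212 higher in aC (40.6%) and 5922 lower (38.7%). These shares are the background for all counts of list members against Mock given below. In each list, a gene with almost no counts in Mock could be tested only through its counts in other groups. Changes of at least 2-fold were less even: 3287 genes were higher (21.5%) and 1380 lower (9.03%). At 16-fold or more, 423 genes were higher and 85 lower, and at 64-fold or more 190 were higher and 22 lower. When libraries were scaled by their totals alone, the split became 7705 higher and 4498 lower, and the median log2 fold change of all genes, 0.06 as reported, became 0.29. The counts of at least 2-fold changes fell to 1787 higher and 781 lower when genes averaging under 50 counts were left out.

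**Figure D1:**
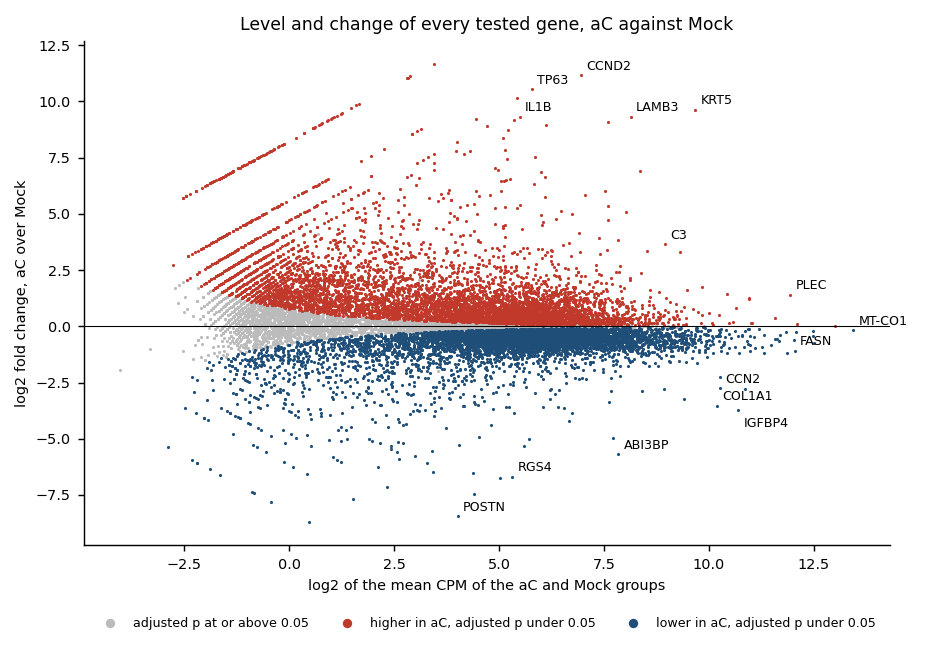
Mean level of each tested gene in the aC and Mock groups (x axis, log2 CPM) against its log2 fold change, aC over Mock (y axis). Points are genes, coloured by the test. The straight diagonal streaks at low level are genes with 0 or a few counts in Mock, whose fitted fold change depends on the small count added by the fit. KRT5 and LAMB3 stand out as both abundant and strongly higher, and IGFBP4 and COL1A1 as abundant and lower.

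Genes with at least 4-fold higher levels took 3.68% and 3.69% of the counts of the aC libraries, against 0.349% and 0.352% in Mock. Those at least 4-fold lower took 0.366% and 0.369% in aC, against 2.38% in each Mock library. Long noncoding RNAs made up 32.9% of the 1511 genes at least 4-fold higher and 10.8% of the 397 genes at least 4-fold lower, against 14.2% of all genes tested.

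Among genes that passed the test with every one of the 4 libraries left out in turn, and that reached 50 CPM in the higher group, the 12 with the largest rise included 3 keratins and the cytokines IL1A and IL1B. CCND2, a D-type cyclin that drives entry into the cell cycle, had 5829 and 5722 counts in aC, against 2 and 1 in Mock, a depth-scaled ratio of 2460 with a 95% counting interval of 840 to 11900. TP63, the transcription factor that defines basal epithelial cells, had 2595 and 2552 counts in aC, against 1 and 1 in Mock, a ratio of 1640 (454 to 13600). For ITGB6, which pairs with αV to activate latent TGF-beta, the counts were 1976 and 2010 in aC, against 1 and 1 in Mock, a ratio of 1270 (352 to 10500). These 3 genes were thus well expressed in both aC libraries and at the edge of detection in both Mock libraries, where 3 counts correspond to 0.181 CPM. Intervals and floors given here cover counting error only.

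KRT5, the basal keratin, reached 1593 and 1656 CPM in aC, against 2.29 and 1.81 CPM in Mock, a log2 fold change of 9.63 ± 0.19 (SE; adjusted p = 9.85e-07). LAMB3, the β3 chain of laminin-332, followed with 566.6 and 556.1 CPM in aC, against 0.672 and 1.08 CPM in Mock (9.32 ± 0.28). IL1B, an interleukin made as an inactive precursor, had 87.6 and 92.4 CPM in aC, against 0.202 and 0.0672 CPM in Mock (9.32 ± 0.68). These genes were picked by the size of their rise, so the gap between the aC and Mock libraries follows from the choice. IL1A (log2 fold change 9.19), KRT6A (9.08), S100A14 (8.97), ESRP1 (8.74) and G0S2 (8.36), which inhibits a triglyceride lipase, completed the 12 together with KRT6B, whose counts of 1281 and 1165 in aC stood against 0 and 3 in Mock (ratio 520, 178 to 2520). KRT6A and KRT6B share most of their sequence, so reads can be split between them.

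The 12 largest falls among genes reaching 50 CPM in Mock included a matrix-associated gene and a pair of insulin-like growth factor binding proteins. PALM, a lipid-anchored membrane protein, had 0.686 and 0.514 CPM in aC, against 64.1 and 64.4 CPM in Mock, a log2 fold change of -6.73 ± 0.27. RGS4, which shortens G-protein signalling, had 0.686 and 0.814 CPM in aC, against 82.4 and 74.4 CPM in Mock (-6.70 ± 0.24). ABI3BP, a secreted matrix-associated protein, was at 8.58 and 8.86 CPM in aC, against 459.3 and 436.9 CPM in Mock (-5.68 ± 0.073). PALM and RGS4 were thus under 1 CPM in both aC libraries, and ABI3BP was not. Further down came RASGRF1 (-5.32), PNMA2 (-5.02), IGFBP2 (-4.97), ABCA3 (-4.38), FOXC2 (-4.19), NR2F1 (-3.88), EDIL3 (-3.83), IGFBP4 (-3.74) and VWA5A (-3.69).

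**Figure D2:**
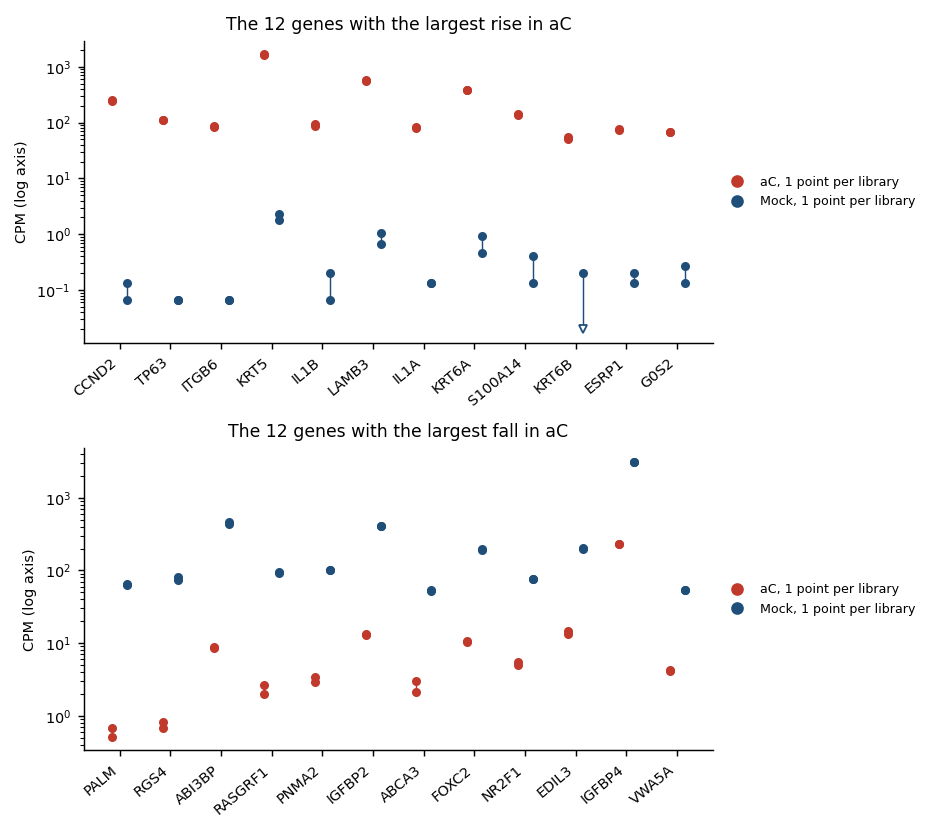
CPM on a log axis in each aC library (red, left of each pair) and each Mock library (blue, right) for the 12 genes with the largest rise (upper panel) and the 12 with the largest fall (lower panel) that reached 50 CPM in the higher group. The open triangle marks a library with 0 counts, drawn at the lower edge. The 2 libraries of a group almost coincide except where counts are near 0. The genes were picked by the size of their change, so the gap between the groups follows from the choice.

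With a limit of 3 counts over the 2 libraries of a group, 8 genes were at or under it in Mock while reaching at least 1000 counts in aC: CCND2, TP63, ITGB6, KRT6B, CYP24A1, HOOK1, GRHL2 and ELF3. CYP24A1, which inactivates vitamin D hormone, had 1010 and 1028 counts in aC, against 2 and 0 in Mock. GRHL2, a transcription factor needed for epithelial junctions, had 469 and 548 counts in aC, against 0 and 0 in Mock, and was at least 216-fold higher (3 counts over the Mock group). In the other direction, 5 genes had 3 counts or fewer in aC and at least 100 in Mock: TUBB4A, LOC105374707, FGG, PARVG and CPA3. TUBB4A, a neuronal β-tubulin, had 1 and 2 counts in aC, against 141 and 155 in Mock, a ratio of 0.00646 (0.00133 to 0.0191). Among all tested genes, 129 had no count in either Mock library and 10 had none in either aC library. The aC libraries held more counts than the Mock libraries, and such genes could be tested only through other groups. The part of depth and of the filter on low counts in these 2 numbers was not tested.

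Transcription and splicing regulators of epithelia were the list with the highest median. Of 19 tested, 18 were higher in aC and 1 lower, beside 40.6% and 38.7% over all genes. The median log2 fold change was 4.76 against 0.06 over all genes. It was 4.32 with the genes at 0 in Mock set to their lower bound. Members with almost no counts in Mock, such as TP63 and GRHL2, could pass the filter on low counts only through other groups. The count and the median are thus in part set by that filter. Besides TP63, GRHL2 and ELF3, the splicing regulator ESRP1 had 72.2 and 76.6 CPM in aC, against 0.202 and 0.134 CPM in Mock. In aC these 4 regulators were thus clearly expressed, and the Mock libraries held few or no counts of them. KLF5, at -0.20, was the member that fell, and it was 0.02 with scaling by library totals alone.

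Of 14 keratins tested, 13 were higher and 1 lower, with a median of 1.72. KRT17, a keratin of activated basal cells, had 1079 and 1088 CPM in aC, against 351.6 and 349.8 CPM in Mock (log2 fold change 1.63 ± 0.016). KRT7, KRT8 and KRT18, the keratins of simple epithelium, were abundant in both groups: KRT7 had 2794 and 2759 CPM in aC, against 1194 and 1187 CPM in Mock, and KRT18 had 502.4 and 501.3 CPM in aC, against 444.3 and 455.5 CPM in Mock. KRT14, KRT16 and KRT17 are close paralogs with pseudogenes, to which reads can be assigned wrongly. KRT18 rose by 0.16 on the log2 scale and KRT5 by 9.63, and KRT10 (-0.86) fell. Among S100 and cornified envelope genes, 8 of 12 were higher and 3 lower (median 1.15), led by S100A14, S100A9 and S100A2, while S100A6 fell (-1.24).

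**Figure D3:**
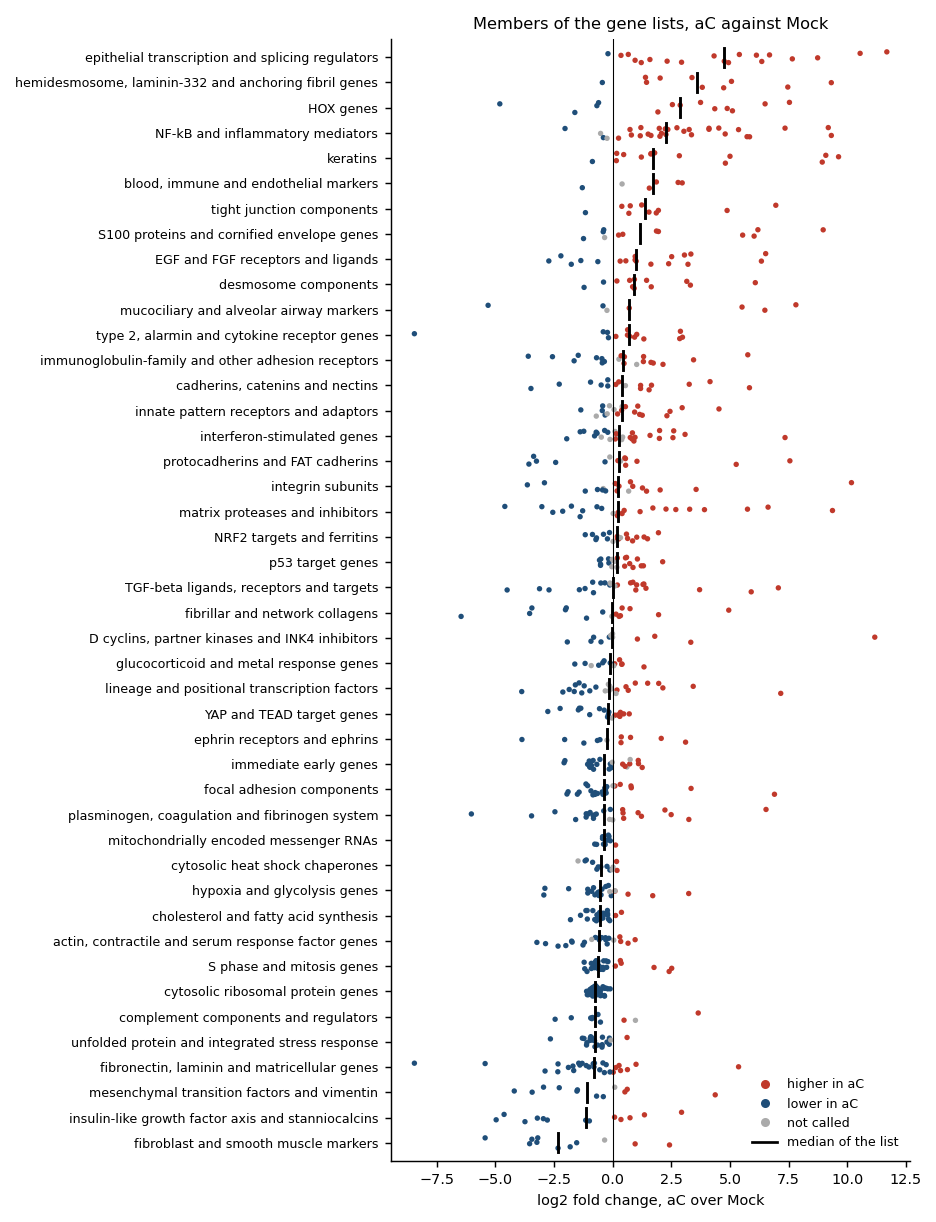
log2 fold change, aC over Mock, of every tested member of 44 gene lists (x axis), with lists ordered by their median (black bar). Red points passed the test as higher, blue as lower, and grey did not pass. Epithelial regulators, hemidesmosome genes, HOX genes and NF-kB mediators lie at the top, and fibroblast markers, insulin-like growth factor genes and mesenchymal factors at the bottom.

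Hemidesmosome, laminin-332 and anchoring fibril genes rose as a block. Of 10 tested, 9 were higher by at least 2-fold and 1 was lower, with a median of 3.60. LAMA3, the α3 chain of laminin-332, had 369.2 and 372.7 CPM in aC, against 13.8 and 14.2 CPM in Mock. LAMA3 rose by 4.73 on the log2 scale, less than LAMB3 (9.32). COL17A1, the transmembrane collagen of hemidesmosomes, was at 72.3 and 72.3 CPM in aC, against 0.336 and 0.470 CPM in Mock. The integrin chains that form α6β4 rose less, ITGA6 by 2.02 and ITGB4 by 1.44 on the log2 scale, and ITGB4 was abundant in both groups, with 2046 and 2007 CPM in aC, against 739.5 and 751.3 CPM in Mock. PLEC, which encodes plectin, had 5687 and 5681 CPM in aC, against 2156 and 2158 CPM in Mock (1.40 ± 0.00635, adjusted p = 5.8e-290). CD151, a tetraspanin partner of laminin-binding integrins, was the member that fell (-0.44 ± 0.032).

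Part of the LAMA3 promoter is shown because LAMA3 is a member of this block with a pair of matches to the AP-1 motif, spelled TGANTCA and searched on both strands, just before a RefSeq start site. The window lies on the plus strand at chr18:23872880-23872979 in GRCh38.p14 (RefSeq), with the matches in capitals.
LAMA3: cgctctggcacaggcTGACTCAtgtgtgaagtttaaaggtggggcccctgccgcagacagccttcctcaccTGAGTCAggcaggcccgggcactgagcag
Its 2 matches begin 125 and 69 bases before the start site. The motif was present in 4.94% of the 300-base promoters of 11731 tested genes and in 9.39% of the 980 promoters of genes at least 4-fold higher in aC.

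Intercellular junction genes moved mostly upward, with a cadherin exchange. Of 16 cadherins, catenins and nectins, 9 were higher and 6 lower (median 0.40, or 0.62 with scaling by library totals alone). CDH1, the epithelial cadherin, had 258.0 and 258.4 CPM in aC, against 5.04 and 4.03 CPM in Mock (5.83 ± 0.13). CDH2, the neural cadherin of mesenchymal cells, had 38.3 and 38.2 CPM in aC, against 186.3 and 184.5 CPM in Mock (-2.28 ± 0.039). CDH1 was thus the more abundant of the pair in aC, and CDH2 in Mock, also per length: CDH1 averaged 176.6 TPM (a length-scaled share of transcripts) in aC and 2.33 TPM in Mock, and CDH2 averaged 27.9 TPM in aC and 101.4 TPM in Mock. CDH3, the placental cadherin, rose by 4.15, CDH11, which is a mesenchymal cadherin, rose by 3.26, and CDH6 fell by 3.48 on the log2 scale. CTNNB1, β-catenin, was at 0.13, or -0.32 with GC content and length trends removed, and CTNNA1 fell by 0.21 but was at 0.01 with scaling by library totals alone.

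Desmosome genes were higher for 10 of 12 and lower for 2 (median 0.92). DSP, which anchors keratins to desmosomes, had 1156 and 1168 CPM in aC, against 120.4 and 113.5 CPM in Mock (3.31 ± 0.025), and DSG3 rose by 6.08. PKP2 fell (-1.22) while its relative PKP3 rose (3.16). Tight junction genes were higher for 9 of 10 tested, with CLDN11 (-1.16) lower and a median of 1.39, and 8 of the 18 listed could not be tested (4 with copies, 4 with low counts). EPCAM rose with them, at 133.3 and 136.4 CPM in aC, against 2.15 and 2.82 CPM in Mock (5.76).

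Integrin subunits went both ways, 10 of 18 higher and 6 lower, with a median of 0.23 that was 0.45 with scaling by library totals alone and 0.15 with GC content and length trends removed. The epithelial partners rose: besides ITGB6, the collagen receptor chain ITGA2 had 63.8 and 63.5 CPM in aC, against 5.98 and 4.84 CPM in Mock (3.56 ± 0.117), and ITGAV, the chain that pairs with ITGB6, rose by 1.27. The most abundant α chain, ITGA3, was at 1627 and 1645 CPM in aC, against 1439 and 1431 CPM in Mock, a log2 fold change of 0.19. ITGB1 fell by 0.43 to 981.2 and 990.9 CPM in aC, against 1329 and 1331 CPM in Mock. The RGD-binding β3 chain, ITGB3, had 11.97 and 11.95 CPM in aC, against 26.6 and 27.2 CPM in Mock (-1.17), and ITGA5, the fibronectin receptor chain, differed by 0.11. ITGA11 and ITGA7, chains of mesenchymal and muscle cells, fell by 3.64 and 2.91 on the log2 scale, while ITGA1 (0.86) and ITGA4 (0.76) rose.

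Focal adhesion components were mostly lower, 23 of 30 against 6 higher, with a median of -0.37 (-0.15 with scaling by library totals alone, -0.51 with GC content and length trends removed). FERMT2, kindlin-2, had 92.4 and 91.2 CPM in aC, against 261.6 and 259.1 CPM in Mock (-1.504 ± 0.0295), whereas FERMT1, the epithelial kindlin, had 83.0 and 80.4 CPM in aC, against 8.27 and 7.86 CPM in Mock (3.34). A like pair was seen in tensins: TNS4, which lacks an actin-binding region, had 658.6 and 654.4 CPM in aC, against 5.92 and 5.11 CPM in Mock (6.89), while TNS1 (-1.14), TNS2 (-0.84) and TNS3 (-0.92) fell. The structural proteins FLNA (-0.65), ACTN1 (-0.41), TLN1 (-0.33) and VCL (-0.31) fell less. Among 20 immunoglobulin-family and other adhesion receptors 10 were higher and 8 lower, with L1CAM (3.45), SDC1 (1.73) and ICAM1 (1.63) higher and SDC2 (-3.60) and CADM4 (-2.57) lower.

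Of 28 fibronectin, laminin and matricellular genes, 21 were lower and 7 higher, with a median of -0.81. Fibronectin itself, FN1, was the exception in size: it had 8313 and 8306 CPM in aC, against 8173 and 8161 CPM in Mock, a difference of 0.02 on the log2 scale that turned to -0.42 once trends with GC content and length were removed. POSTN, periostin, had 4 and 0 counts in aC against a level of 33.1 and 31.5 CPM in Mock (-8.45 ± 0.68). BGN (-2.88), NID1 (-2.34), FBN1 (-1.69), the collagen cross-linking enzyme LOXL2 (-1.66) and SPARC (-1.13) fell, while TNC, tenascin-C, rose to 378.7 and 377.7 CPM in aC, against 9.61 and 8.73 CPM in Mock (5.36). Collagens split 7 higher and 7 lower of 15: COL1A1 had 188.4 and 185.3 CPM in aC, against 2160 and 2185 CPM in Mock (-3.54 ± 0.017), COL5A1 fell by 6.46, and the basement membrane chains COL4A1 and COL4A2 rose by 0.74 and 0.33. COL16A1, a chain that associates with fibrils, rose most of the list: it had 122.5 and 124.5 CPM in aC, against 3.56 and 4.43 CPM in Mock (4.95 ± 0.133), and COL5A3 rose by 1.956.

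Mesenchymal transition factors and vimentin were lower for 8 of 12 and higher for 3 (median -1.09), and, in a wider list of 15 fibroblast and smooth muscle markers of which 11 were tested, 8 were lower and 2 higher (median -2.33). VIM, vimentin, had 320.8 and 324.5 CPM in aC, against 932.6 and 921.9 CPM in Mock (-1.52). ZEB2 fell by 1.502, whereas ZEB1, a repressor of CDH1, was at 18.1 and 19.4 CPM in aC and 17.3 and 18.0 CPM in Mock, a difference of 0.09 that did not pass the test and that was -0.69 with GC content and length trends removed. SNAI2, which basal epithelial cells also express, went the other way, with 19.99 and 23.3 CPM in aC, against 0.807 and 1.28 CPM in Mock (4.37). Among the fibroblast markers DCN (-5.44), COL1A2 (-3.44), TAGLN (-3.23) and PDGFRB (-3.19) fell while ACTA2 (0.96) and FAP (2.42) rose.

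Matrix proteases and inhibitors were higher for 13 of 23 and lower for 9, against 40.6% higher and 38.7% lower over all genes, and their median of 0.23 was 0.45 with scaling by library totals alone and 0.07 with GC content and length trends removed. The epithelial membrane protease ST14, matriptase, had 136.2 and 136.4 CPM in aC, against 1.14 and 1.61 CPM in Mock (6.62), and its inhibitors SPINT1 (3.28) and SPINT2 (3.91) rose with it. MMP9 had 204 counts over the aC libraries and 0 over the Mock libraries, at least 43.4-fold higher. TIMP1 (-1.76) and TIMP2 (-1.39), inhibitors of matrix metalloproteinases, fell.

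In the plasminogen, coagulation and fibrinogen system, 9 of 25 genes were higher and 14 lower (median -0.38, but -0.16 with scaling by library totals alone and -0.13 with GC content and length trends removed). PLAU, urokinase, had 134.6 and 135.7 CPM in aC, against 28.0 and 29.7 CPM in Mock (2.23 ± 0.053), and its receptor PLAUR had 20.1 and 19.5 CPM in aC, against 10.4 and 8.33 CPM in Mock (1.08). F2RL1, the protease-activated receptor PAR2 that mite proteases are known to cleave, had 23.8 and 20.3 CPM in aC, against 7.66 and 11.2 CPM in Mock (1.23). All 3 rose, as did 40.6% of all genes tested. TGM2, a transglutaminase that cross-links fibrin αC regions, fell by 1.58 to 267.5 and 272.5 CPM in aC, against 807.0 and 804.7 CPM in Mock. The fibrinogen chain genes were low: FGG had 1 and 2 counts in aC, against 61 and 76 in Mock (ratio 0.0140, 0.00284 to 0.0417), FGB had 0.0429 and 0.257 CPM in aC, against 2.02 and 1.41 CPM in Mock (-3.46), and FGA had 0 counts in all libraries. FGG had 518 and 513 counts in the FBG libraries and 0 in each FCP library.

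Actin, contractile and serum response factor genes were lower for 16 of 22 and higher for 4 (median -0.58, or -0.36 with scaling by library totals alone). TAGLN had 14.7 and 13.9 CPM in aC, against 135.7 and 132.3 CPM in Mock (-3.23), and MYL9, the light chain of contractile myosin, had 125.6 and 121.8 CPM in aC, against 408.9 and 422.8 CPM in Mock (-1.75). ACTB, cytoplasmic β-actin, fell by 0.74. Among target genes of YAP and TEAD, the transcription pair that reads cell spreading and tension, 11 of 19 were lower and 7 higher, and the median of -0.19 was 0.04 with scaling by library totals alone. CCN2 and CCN1, secreted matricellular proteins, fell most: CCN2 had 311.4 and 317.7 CPM in aC, against 2138 and 2135 CPM in Mock (-2.76 ± 0.013), and CCN1 had 434.9 and 431.0 CPM in aC, against 2049 and 2042 CPM in Mock (-2.24 ± 0.012). Altogether 5 genes of the list fell by at least 2-fold, the other 3 being ANKRD1 (-1.46), TGFB2 (-1.42) and AXL (-1.36), a receptor tyrosine kinase with 556.6 and 560.8 CPM in aC, against 1429 and 1434 CPM in Mock. GADD45A fell by 0.98, AMOTL2 by 0.56 and AJUBA by 0.36 on the log2 scale, while TEAD1 was at 0.33, or -0.23 with GC content and length trends removed.

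The CCN2 promoter is given because its start region holds 3 copies of the TEAD motif, spelled GGAATG and searched on both strands. The window is on the minus strand at chr6:131951453-131951552 (RefSeq, GRCh38.p14), with the copies in capitals.
CCN2: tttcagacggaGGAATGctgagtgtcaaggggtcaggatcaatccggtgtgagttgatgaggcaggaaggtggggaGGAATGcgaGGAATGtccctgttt
They begin between 169 and 95 bases before the start site. The motif was found in 11.1% of all promoters tested, in 12.7% of those of genes at least 4-fold higher in aC and in 11.3% of those at least 4-fold lower.

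EGF and FGF receptors and ligands were higher for 13 of 18 and lower for 5 (median 0.98). TGFA, a ligand of EGFR, had 71.1 and 72.0 CPM in aC, against 0.807 and 0.739 CPM in Mock (6.52), AREG and EREG rose by 3.33 and 2.38, and EGFR itself had 528.0 and 538.7 CPM in aC, against 271.1 and 278.8 CPM in Mock (0.96). The EGFR gene and several of its ligands therefore rose together, while ERBB2 (-0.63) and FGFR1 (-1.76) fell. Insulin-like growth factor genes were lower for 8 of 13 and higher for 5, with a median of -1.15 (-0.73 with GC content and length trends removed), and the binding proteins carried the falls: IGFBP4 had 231.8 and 232.9 CPM in aC, against 3090 and 3110 CPM in Mock, IGFBP3 had 129.6 and 134.2 CPM in aC, against 1225 and 1216 CPM in Mock (-3.21), and the receptor IGF1R was at 0.08, or -0.11 with GC content and length trends removed.

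TGF-beta ligands, receptors and targets were higher for 11 of 24 and lower for 10, close to the 40.6% and 38.7% over all genes. Their median of 0.01 was -0.13 with GC content and length trends removed. INHBA, the activin A subunit, had 60.4 and 57.9 CPM in aC, against 0.202 and 0.672 CPM in Mock (7.06), and PMEPA1, a feedback inhibitor, rose by 3.70. BMP4 (-3.12), ID2 (-4.50) and TGFB1 (-1.18) fell. D cyclins, their kinases and inhibitors split 4 higher and 5 lower of 12, also near the shares over all genes. CDK6 was at 141.6 and 136.0 CPM in aC, against 14.1 and 13.5 CPM in Mock (3.33). CCND1 was at 369.3 and 369.3 CPM in aC, against 107.1 and 105.9 CPM in Mock (1.79), and CDK4 was lower (-0.92).

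NF-kB and inflammatory mediators rose for 27 of 31 tested and fell for 2, with a median of 2.27, and 24 rose by at least 2-fold. Members with almost no counts in Mock, such as IL1A and IL1B, could pass the filter on low counts only through other groups. The counts of members are thus in part set by that filter. The median was also 2.27 with the 1 member at 0 in a group set to its bound. Cytokines led: next to IL1A and IL1B, the granulocyte factor CSF3 had 53.6 and 54.5 CPM in aC, against 1.08 and 0.806 CPM in Mock (5.83), and IL6 had 28.8 and 25.7 CPM in aC, against 1.48 and 1.68 CPM in Mock (4.10 ± 0.21). The neutrophil and dendritic cell chemokines rose by unequal amounts. CCL20 had 8.88 and 9.59 CPM in aC, against 0 and 0.336 CPM in Mock (5.73 ± 0.62), CXCL8 had 31.8 and 32.2 CPM in aC, against 15.5 and 12.9 CPM in Mock (1.18 ± 0.086), and CXCL1 had 44.2 and 42.0 CPM in aC, against 25.3 and 26.4 CPM in Mock (0.74). CXCL1, CXCL2 and CXCL3 are near copies of one another, so reads can be split between them. CCL2 (-0.40) and IL18 (-2.03) fell.

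Feedback genes of the pathway rose as well. TNFAIP3, which encodes the ubiquitin-editing inhibitor A20, had 125.1 and 123.9 CPM in aC, against 4.64 and 6.18 CPM in Mock (4.52), and NFKBIA, which encodes the inhibitor IκBα, had 151.7 and 155.0 CPM in aC, against 54.4 and 53.1 CPM in Mock (1.51). The subunit genes NFKB2 (2.27) and RELB (2.01) rose more than NFKB1 (0.80). Enzymes and surface proteins followed: SOD2, mitochondrial superoxide dismutase, had 559.2 and 563.1 CPM in aC, against 107.9 and 112.0 CPM in Mock (2.35), TNFAIP2 had 672.0 and 670.4 CPM in aC, against 63.5 and 67.4 CPM in Mock (3.36), and ICAM1, the ligand of leukocyte integrins, had 588.4 and 575.4 CPM in aC, against 184.4 and 191.2 CPM in Mock (1.63).

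Promoter windows of genes from the 2 paragraphs above are printed to show where the NF-kB motif lies in them. They run from 120 to 41 bases before the RefSeq start site in GRCh38.p14, with matches in capitals. The windows are chr4:73869273-73869352 (plus) for CXCL1, chr2:227813722-227813801 (plus) for CCL20, chr7:22727080-22727159 (plus) for IL6 and chr14:35404790-35404869 (minus) for NFKBIA.
CXCL1: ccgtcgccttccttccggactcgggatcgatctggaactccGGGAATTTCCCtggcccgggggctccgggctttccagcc
CCL20: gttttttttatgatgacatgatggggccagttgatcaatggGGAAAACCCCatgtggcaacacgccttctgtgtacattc
IL6: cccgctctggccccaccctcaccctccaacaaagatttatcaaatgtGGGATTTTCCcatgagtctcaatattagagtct
NFKBIA: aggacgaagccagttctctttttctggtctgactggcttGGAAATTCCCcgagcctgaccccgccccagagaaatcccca
In CXCL1 2 overlapping matches form the run in capitals. The motif, added to the search after values had been seen, was present in 12.8% of all promoters tested, in 13.9% of those of genes at least 4-fold higher in aC than in Mock, and in 15.6% of those at least 4-fold lower.

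Innate pattern receptors and adaptors were higher for 11 of 20 and lower for 4 (median 0.39, or 0.61 with scaling by library totals alone). TLR2, the receptor for bacterial lipoproteins, had 14.1 and 15.7 CPM in aC, against 0.672 and 0.605 CPM in Mock (4.53 ± 0.33), whereas TLR4, the lipopolysaccharide receptor, had 39.3 and 35.8 CPM in aC, against 94.7 and 97.9 CPM in Mock (-1.36 ± 0.046). RIGI, a sensor of viral RNA, rose by 2.96, and MYD88 fell by 0.43. Interferon-stimulated genes were higher for 14 of 28 and lower for 8 (median 0.29, or 0.51 with scaling by library totals alone), among them IFI44 (3.08), DDX60 (2.60) and OASL (2.57) higher, and IFITM3 (-0.70), IFI6 (-1.39) and USP18 (-1.96) lower. C3, the central complement component, had 918.8 and 916.9 CPM in aC, against 73.4 and 73.3 CPM in Mock (3.65 ± 0.032), while 7 of the 10 complement genes tested fell, CLU (-2.45) and CD55 (-1.76) among them. In the list of type 2, alarmin and cytokine receptor genes 10 of 14 were higher and 4 lower: IL4R, the receptor chain for interleukins 4 and 13, had 134.1 and 131.8 CPM in aC, against 18.8 and 17.2 CPM in Mock (2.89), and TSLP, an epithelial alarmin, had 0.858 and 0.685 CPM in aC, against 0.134 and 0.0672 CPM in Mock.

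A direct test of aC against FCP showed where aC stood apart from the group it most resembled. Of 15284 genes, 2327 passed (15.2%), 1105 higher in aC (7.23%) and 1222 lower (8.0%), but changes were small: 60 genes were at least 2-fold higher (0.393%) and 18 at least 2-fold lower (0.118%). The number that passed was 1544 without the first FCP library, 804 with DESeq2's Wald test and 1470 with genes that have copies kept. Of the NF-kB and inflammatory mediators, 28 of 31 were higher in aC and 0 lower, with a median log2 difference of 0.85 and 12 at least 2-fold higher. For the same genes the median against Mock was 2.27 in aC, 1.45 in FCP and -0.20 in FBG, comparisons that share the Mock libraries. Interferon-stimulated genes were higher in aC than in FCP for 19 of 28 and lower for 0 (median 0.41), and innate receptors and adaptors for 6 of 20.

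SOD2 stood at 559.2 and 563.1 CPM in aC, against 203.8 and 203.6 CPM in FCP, a log2 difference of 1.46 ± 0.018 (adjusted p = 3.62e-122). TNFAIP2 had 672.0 and 670.4 CPM in aC, against 241.0 and 244.8 CPM in FCP (1.47 ± 0.016), and ICAM1 had 588.4 and 575.4 CPM in aC, against 323.7 and 324.6 CPM in FCP (0.84 ± 0.015). CXCL8 was at 31.8 and 32.2 CPM in aC, against 11.5 and 11.2 CPM in FCP (1.499 ± 0.0819). For CXCL8 the FCP value lay below that of Mock, 15.5 and 12.9 CPM, and FBG was lower still at 9.86 and 9.59 CPM, so aC was the one treated group above Mock. CXCL1 was 1.02 higher in aC than in FCP, where it had 20.5 and 22.2 CPM, and FBG and Mock overlapped, with 25.4 and 28.5 CPM in FBG. CCL2 was 1.40 higher in aC than in FCP, but lower in aC than in Mock. Larger differences were seen in genes of lower level, such as CCL20 (1.94), SAA2 (2.33), CXCL5 (1.65) and LCN2 (1.71), and BIRC3 differed by 1.48.

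Outside that group, INHBA (1.24), KRT6B (1.85) and TLR2 (1.07) were at least 2-fold higher in aC than in FCP, and TNC (0.88), TNIP1 (0.91), SDC4 (0.75), SMAD3 (0.70) and TP63 (0.45) were higher by less. KRT5 (0.01), CDH1 (0.02), ITGB4 (-0.02), COL17A1 (-0.02), IGFBP4 (0.01) and CCN2 (0.05) did not pass the test, with standard errors of 0.040 or less. CCND2 was lower in aC than in FCP (-0.31 ± 0.020). PLEC (0.08) and C3 (0.36) were higher, both by less than 2-fold. Of the cytosolic heat shock chaperones, 10 of 13 were lower in aC than in FCP, HSPA8 by 0.33 and HSP90AB1 by 0.14 on the log2 scale, and so were 12 of 13 mitochondrial messenger RNAs (median -0.12) and 12 of 26 genes of cholesterol and fatty acid synthesis. Small structural RNAs were lower too: RN7SK had 0.815 and 1.58 CPM in aC, against 8.98 and 8.26 CPM in FCP (-2.84 ± 0.21), and RMRP was 3.21 lower on the log2 scale. The part of these RNAs in the other differences was not tested.

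**Figure D4:**
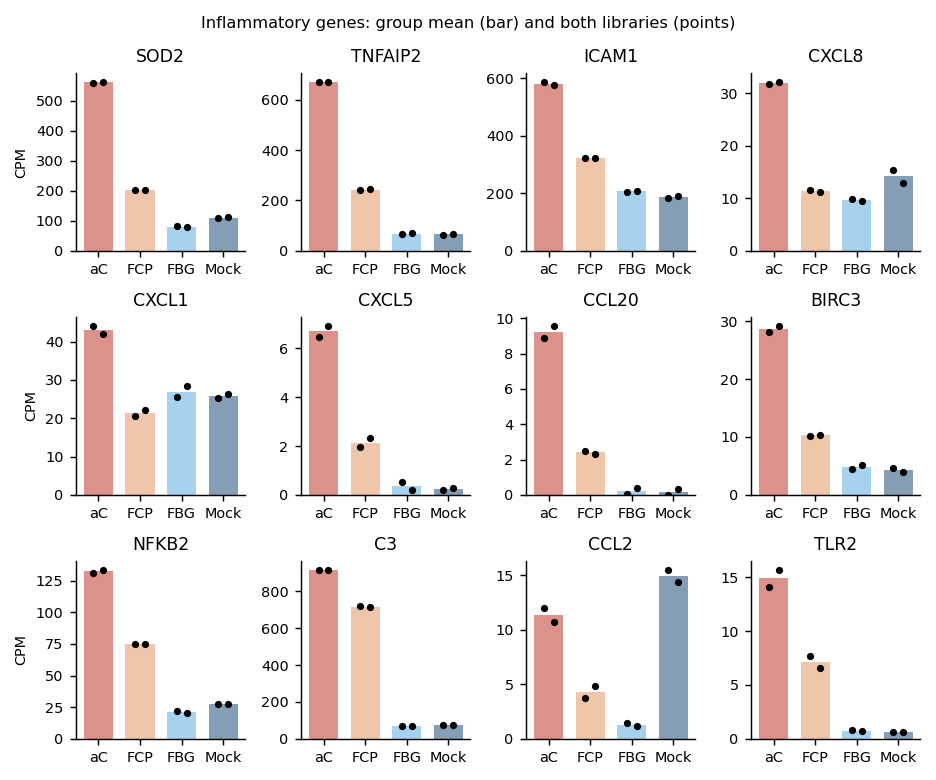
CPM of 12 inflammatory genes in the aC, FCP, FBG and Mock groups (bars are group means, points the 2 libraries). In each panel both aC points lie above both FCP points. In CXCL8, CXCL1 and CCL2 both FCP libraries lie below both Mock libraries, and in CCL2 the Mock libraries are the highest.

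Promoters of the genes at least 2-fold higher in aC than in FCP held the NF-kB motif in 14 of 42 cases (33.3%), against 12.8% of all promoters tested, and the AP-1 motif in 7 (16.7%), against 4.94%. These shares describe where the letters occur and were not tested. The NF-kB motif was added to the search after values had been seen. Of the 60 genes at least 2-fold higher in aC than in FCP, 12 were on the list of NF-kB and inflammatory mediators. That list held 31 of the 15284 genes tested, and the 60 were 0.393% of all genes tested. The list was chosen with earlier results of these data known. Other motifs searched were the E-box CACCTG, present in 28.7% of promoters of genes at least 4-fold higher in aC than in Mock and in 18.7% of all promoters, and the SP1 motif GGGCGG, present in 48.7% of them and in 67.5% of all. The GRHL motif AACCNGTT was present in 1.84% and 1.38%. All were searched on both strands and may overlap.

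Against FBG, 5589 genes were higher in aC (36.6%) and 5634 lower (36.9%). Epithelial regulators were higher for 17 of 19 and lower for 1 (median 3.91), hemidesmosome genes for 9 of 10 (2.94), keratins for 13 of 14 (3.47) and NF-kB mediators for 28 of 31 (2.88). Metabolic lists differed between the 2 references: genes of cholesterol and fatty acid synthesis were lower in aC than in Mock for 24 of 26, with a median of -0.56 (-0.34 with scaling by library totals alone), but higher for 13 and lower for 10 against FBG, with a median of 0.06. FASN had 2722 and 2720 CPM in aC, 1616 and 1638 CPM in FBG and 5772 and 5743 CPM in Mock, so aC lay between the other 2 groups. Hypoxia and glycolysis genes had a median of -0.55 against Mock (-0.33 with scaling by library totals alone), with 18 of 24 lower, and of 0.01 against FBG.

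Housekeeping and stress programmes were lower in aC than in Mock, most by less than 2-fold. All 63 tested genes of cytosolic ribosomal proteins fell, with a median of -0.74 (-0.52 with scaling by library totals alone, -0.28 with GC content and length trends removed), between RPL7 (-0.11, or 0.12 with that scaling) and RPL28 (-1.11). Many of them have processed pseudogenes, to which reads can be lost. Of 22 genes of the unfolded protein and integrated stress response, 20 fell and 1 rose. Their median of -0.76 was -0.54 with scaling by library totals alone and -0.53 with GC content and length trends removed. Among those that fell was CALR, an endoplasmic reticulum chaperone, with 795.7 and 793.9 CPM in aC, against 1714 and 1726 CPM in Mock (-1.11). Heat shock chaperones fell for 8 of 13 and rose for 2 (median -0.51, but -0.28 with scaling by library totals alone and -0.13 with GC content and length trends removed), and HSPA8 had 2295 and 2294 CPM in aC, against 5201 and 5161 CPM in Mock. Among cholesterol genes INSIG1, the sterol-sensing brake, fell by 1.80.

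Of 30 S phase and mitosis genes, 24 were lower and 6 higher (median -0.61, or -0.39 with scaling by library totals alone): CCNB1 had 178.9 and 175.0 CPM in aC, against 380.6 and 375.0 CPM in Mock (-1.09), and the MCM helicase genes fell by 0.26 to 0.81. MKI67 rose to 1416 and 1408 CPM in aC, against 413.9 and 418.5 CPM in Mock (1.76), together with CENPF (2.41) and CENPE (2.52). These 3 have long transcripts, and over 10694 genes averaging 50 counts or more, the log2 fold change correlated with transcript length across genes (Spearman rho 0.36) and inversely with GC content (-0.32), as a description with genes that are not independent. Genes called higher had a median length of 5300 bases and a median GC content of 44.1%, against 3460 bases and 51.1% in genes called lower. The part of length and GC content in the changes was not tested gene by gene. With both trends removed, over 13119 genes with a value, 4393 genes were higher and 6106 lower, and 2026 were at least 2-fold higher.

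Immediate early genes were mostly lower, 15 of 24 against 6 higher, with a median of -0.35 that was -0.12 with scaling by library totals alone and -0.07 with GC content and length trends removed. EGR1 had 473.4 and 465.0 CPM in aC, against 953.9 and 922.0 CPM in Mock (-0.999), and DUSP5, a phosphatase induced by ERK signalling, fell by 2.07. FOS (1.26) and JUNB (1.10) rose. NRF2 targets went both ways, 10 of 19 higher and 7 lower, with the cystine carrier SLC7A11 (1.49) higher and TALDO1 (-1.17) lower. Among p53 targets 10 of 20 were higher and 6 lower, beside 40.6% and 38.7% over all genes. The rises were led by FAS (2.13), PLK3 (1.31), BBC3 (1.22) and CDKN1A (1.05). Glucocorticoid and metal response genes were higher for 5 of 13 and lower for 6, with MT2A, a metallothionein, lower by 1.18. VEGFA (1.71) and NDRG1 (3.24) rose while other hypoxia-linked genes such as ADM (-2.93) and SLC2A3 (-2.89) fell.

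Some genes that mark body position and lineage also differed. Of 13 HOX genes that passed the filter on low counts, out of 36 listed, 9 were higher by at least 2-fold, against 21.5% of all genes. These 9 were all of the HOXA and HOXD clusters, and 4 were lower, all of HOXB. Genes with almost no counts in Mock could pass that filter only through other groups. An example was HOXD11, with 91 and 78 counts in aC, against 0 and 1 in Mock. The split of the HOX genes is thus in part set by the filter. HOXA3 had 6.56 and 5.44 CPM in aC, against 0.134 and 0.202 CPM in Mock, and HOXB7 had 0.0429 and 0.0856 CPM in aC, against 2.02 and 1.95 CPM in Mock. No HOX gene passed the test between aC and FCP in either direction. The median of the 13 against Mock was 2.88 in aC, 2.98 in FCP and 1.47 in FBG, comparisons that share the Mock libraries. In the direct test against FBG, 8 were higher in aC and 4 lower, with a median of 1.77. Over all genes 36.6% were higher in aC than in FBG and 36.9% lower. NKX2-1, the lung lineage factor, had 6 and 6 counts in aC, against 151 and 160 in Mock, and FOXA2 had 69 counts over the aC libraries and 0 over the Mock libraries, at least 14.7-fold higher. Of 25 other lineage factors, 9 were higher, with HMGA2 (3.43) and PAX6 (2.14), and 10 lower, with NR2F1 and PAX9 (-1.85). These counts were close to the 40.6% higher and 38.7% lower over all genes. The median of these factors, -0.15, was 0.07 with scaling by library totals alone. No source used here says whether the aC and Mock cultures came from one stock of BEAS-2B, and for these position and lineage genes treatment and culture cannot be told apart. Antisense genes overlap several of these loci, and without strand their reads cannot be told apart.

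Changes were not spread evenly over the genome. Set against all autosomal genes, the median aC over Mock change on the log2 scale was 0.52 higher for 698 genes of chromosome 9, 0.41 higher for 234 genes of chromosome 18 and 0.40 higher for 731 genes of chromosome 6. With trends of GC content and length removed these became 0.41, 0.34 and 0.30, and 78.0% of the chromosome 9 genes lay above the autosomal median. Chromosomes 17 (-0.28), 11 (-0.24), 19 (-0.24), 22 (-0.24) and 16 (-0.23) were lowest, and between -0.17 and -0.02 after that removal. In blocks of 40 neighbouring genes, the highest medians after removal were 1.04 at chr19:19668153-32485890, 0.83 at chr18:109065-11885685 and 0.79 at chr20:49903391-58715844. Between aC and FCP no autosome's median differed from that of all autosomal genes by more than 0.03. Genes are not replicates, and these medians are descriptions without a test, in which treatment and culture cannot be told apart either.

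**Figure D5:**
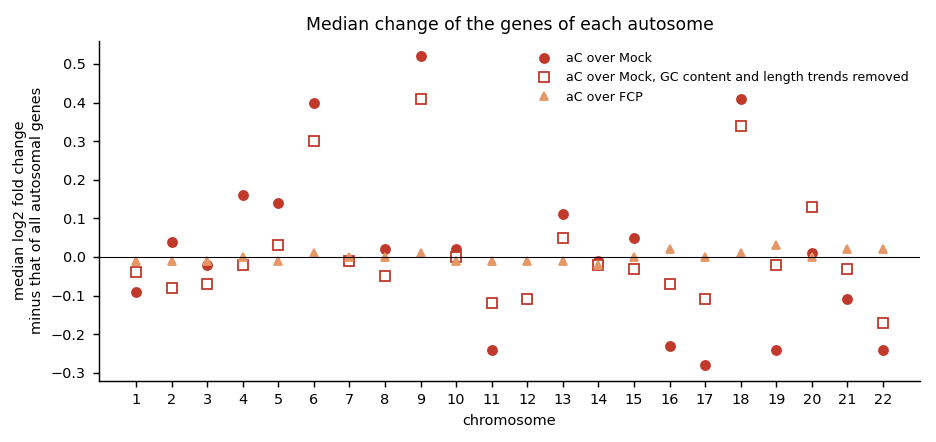
Median log2 fold change of the genes of each autosome minus that of all autosomal genes, for aC over Mock (filled circles), the same with trends of GC content and length removed (open squares), and aC over FCP (triangles). Chromosomes 6, 9 and 18 stand 0.40 to 0.52 above in aC over Mock, and all triangles lie within 0.03 of 0.

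Measured per transcript length, the largest gains and losses in level involved a small set of abundant genes. KRT5 averaged 2423 TPM in aC and 2.30 TPM in Mock, KRT17 averaged 2384 TPM in aC and 579.7 TPM in Mock, and SLC7A5, a carrier of large neutral amino acids, averaged 2074 TPM in aC and 649.0 TPM in Mock. Mitochondrial RNAs were also among the largest gains in TPM, with MT-CO1 at 22520 TPM in aC and 19210 TPM in Mock. On the scaled log2 scale MT-CO1 was 0.18 lower in aC, and 0.04 higher with scaling by library totals alone, so its direction rests on the scaling. MT2A lost most, with 8625 TPM in aC and 14640 TPM in Mock, followed by IGFBP4, with 351.6 TPM in aC and 3525 TPM in Mock, and EFEMP1, a fibulin of elastic matrix, with 591.7 TPM in aC and 3026 TPM in Mock.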

How the data were processed

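RNA from BEAS-2B cells was sequenced in 2 libraries each for aC, FCP, FBG and Mock. The authors deposited whole-number read counts per gene from featureCounts, per the file headers (version 1.6.0; 1.6.2 per the submitters' processing notes), which also name Trimmomatic 0.39, HISAT2 2.2.1 and SAMtools 1.9. No strand option is recorded in the header. Of 50006 gene entries, 6499 lie off the primary assembly. The 9929 with copies on alternate loci, those included, were set aside before scaling (1.18% to 1.23% of counts), by the rule that set the comparison. Counts of such genes differed between the 2 libraries of a group far beyond counting error. Genes passing edgeR's filter, 15284, were scaled by trimmed mean of M values and tested over all 8 libraries with edgeR 4.0.16's quasi-likelihood test (R 4.3.3, residual degrees of freedom pooled over 4 groups) with Benjamini-Hochberg adjustment at 0.05. Standard errors are the larger of the fit's and the counting error. The fit's error was below counting error for 21.1% of genes, and no call had a counting interval over 0. TPM was computed from the counts and the listed lengths.

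Tests on simulated data for aC against Mock, over 14759 genes, recovered 94% of 50 genes changed by 0.5 on the log2 scale and 96% of 50 changed by 1. The simulation changed few genes, evenly up and down and averaging 50 counts or more, with 1 spread for all genes. Most genes differed in the real contrast, so these rates do not carry over to it. Named genes were the 12 largest changes each way at 50 CPM or more, the 8 largest TPM changes each way, the leading 4 of each of 45 lists, 26 preset genes and the 8 strongest differences between aC and FCP, and further list members were named after their values were seen. The members and lists were chosen with earlier results of these data known. Alternatives were other scaling and filters, DESeq2 1.42.0, a replicate block, copies kept, GC content and length trends removed, and each library left out. Replicate numbers did not pair libraries: correlations of same-numbered deviations lay between -0.054 and 0.044. Libraries of a group differed in total by 0.045% to 0.158%. Promoter sequences are from RefSeq (GRCh38.p14), matched for 11731 genes, in windows of 250 bases before to 50 after the start site.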

Additional observations from a re-analysis of the deposited data

How the results depend on the processing

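For aC against Mock, the number of genes at least 2-fold higher, 3287, was 1787 with a mean of at least 50 counts and 2026 with GC content and length trends removed, where 13119 of 15284 genes have a value and 2329 of the 3287 do, and the number at least 2-fold lower, 1380, was 781 with a mean of at least 50 counts. For aC against FCP the number called, 2327, was 1470 with copies kept and 804 with DESeq2's Wald test. With each aC or Mock library left out in turn, the genes called numbered 11514 to 11588, the higher 5785 to 5909, the lower 5679 to 5743, those at least 2-fold higher 3158 to 3262 and at least 2-fold lower 1373 to 1439. Leaving out each aC, Mock or FCP library gave 1544 to 2344 for aC against FCP, and each aC, Mock or FBG library 10468 to 11462 for aC against FBG. The FCP and FBG omissions were added after seeing the data, and the lowest for FCP was without the first FCP library. Where a group keeps 1 library, it is assumed to vary like the others. The cause of these shifts was not tested, apart from the fewer genes tested under the stricter filter and under the removal of trends.

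With the replicate block the counts were 12124 called, 6205 higher, 5919 lower, 3285 and 1378 at least 2-fold, 2335 for aC against FCP and 11201 for aC against FBG. The libraries share only a number.

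Single genes turned round as follows, as log2 fold changes of aC over Mock. With scaling by library totals alone, MT-CO1 was at 0.04, MT-ND1 at 0.12, MT-ND6 at 0.07, CTNNA1 at 0.01, KLF5 at 0.02, OSMR at 0.00, HSP90AB1 at 0.10 and RPL7 at 0.12. With GC content and length trends removed, FN1 was at -0.42, CTNNB1 at -0.32, ZEB1 at -0.69, TEAD1 at -0.23, IGF1R at -0.11, ELOVL6 at -0.03, S100A10 at 0.16, FTL at 0.12, HSP90AB1 at 0.11 and MT1E at 0.12. MT-ND1 was at 0.00 with a mean of at least 50 counts, and FN1 at -0.04 after subtracting the median of all genes, a setting chosen after seeing the data. The cause was not tested.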
